A study of Danio rerio with 6 samples.

Results

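Cytochrome P450 families 1 to 4 were described in RNA-seq of sorted intestinal epithelial cells of zebrafish larvae. The members were all genes whose Ensembl name, with letter case ignored, starts with cyp1, cyp2, cyp3 or cyp4 followed by a letter. This gave 54 of the 32520 genes in the count tables, with 5 genes in family 1, 40 in family 2, 5 in family 3 and 4 in family 4.

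The study compared larvae at 5 days post fertilization (dpf), with 3 libraries, and at 3 dpf, with 3 libraries. Both ages carried the genotype TgKI - cldn15la-tdTomato, a knock-in reporter in which the red protein tdTomato marks cells that express cldn15la, a claudin of the intestinal epithelium. Each library came from a pool of larvae, more than 500 per the labels, with heads removed, dissociated with trypsin and collagenase, and sorted for cells positive for tdTomato and negative for the dead-cell stain 7AAD. All libraries carried batch 1, and non-transgenic controls were not analysed here. The purpose given by the design is the comparison of the ages.

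Library totals ran from 102653637 to 125456069 counts. The library with the title of 3 dpf replicate 3 has 4 dpf in its treatment tag, and the title was used for its group. 5 dpf replicate 1 stood apart from the others of its age: 29.2% of its counts were mitochondrial, against 10.3% and 9.59% in 5 dpf replicates 2 and 3 and a range of 7.91% to 11.4% at 3 dpf, and its log2 level correlated at 0.923 and 0.928 with the others of its age, which correlated at 0.983. The reporter gene cldn15la was at 900, 457 and 347 CPM (counts per 1e6 counts, scaled between libraries) at 5 dpf and at 682, 690 and 525 CPM at 3 dpf, with no call between the ages (adjusted p = 0.779). Its ages overlapped through 5 dpf replicate 1, and 5 dpf replicates 2 and 3 lay below every 3 dpf library. Of 12 enterocyte markers all passed the filter on low counts, and they summed to 7003 to 16173 CPM at 5 dpf and 3527 to 4183 CPM at 3 dpf. In such bulk samples fewer cells of a type and less RNA per cell cannot be told apart.

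Cytochrome P450 enzymes of these families are haem proteins of the endoplasmic reticulum that insert an oxygen atom into their substrate with electrons passed on by P450 reductase. Families 1 to 3 are best known for oxidizing drugs, pollutants and plant toxins, along with steroids and fatty acids, and family 4 for hydroxylating fatty acids and eicosanoids. In vertebrates CYP1A genes are switched on by the aryl hydrocarbon receptor and CYP3A genes by the pregnane X receptor. The small intestine and the liver are main sites of CYP3A enzymes. Fish carry many family 2 genes that lie in tandem arrays.

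Levels are given as CPM scaled with TMM factors, which correct for composition between libraries, and, where genes are compared with each other, as FPKM, the same CPM per kilobase of exon. Of the 54 genes, 50 passed the filter on low counts (edgeR's filterByExpr) and were tested. Of those 50, 22 rose at 5 dpf and 0 fell (edgeR quasi-likelihood test, adjusted p below 0.05 over all genes tested), and each of the 22 rose at least 2-fold. Over all 22386 genes tested, 32.1% were called, 18.1% higher and 14.1% lower. Among the 22, cyp2ad2, cyp2x8, cyp2ad6, cyp2k20 and cyp2k6 passed the filter only with their 5 dpf libraries. Without 5 dpf replicate 1, 2 members were called lower, against 21.0% of all genes tested in that fit. Without both that library and 3 dpf replicate 3, 8 were called lower, against 24.4%. With all libraries, at an unadjusted p below 0.05, edgeR gave 29 members higher and 1 lower, cyp2x7. Of all 22386 genes tested it gave 5535 higher and 4379 lower at that threshold. DESeq2 called 25 members higher and that same gene lower, against 5087 higher and 4068 lower of all genes tested. DESeq2 gave no adjusted p for cyp2aa12, cyp2aa11, cyp2aa4, cyp3c3 and cyp3c2. Of these edgeR had called cyp2aa12 higher. The median log2 fold change was 1.85 over the tested members and 0.09 over all genes tested, and 44 members lay above 0 and 6 below. CPM did not overlap between the ages, with 5 dpf higher, in 26 of the 50 tested members, against 26.1% of all genes tested. With 5 dpf lower they did not overlap in 0 of the 50, against 24.2% of all genes tested (50.3% in either direction). The 26 include the genes named above that passed the filter only with their 5 dpf libraries. They also include cyp2k17 and cyp2x10.2, which passed it that way too. At 3 dpf cyp2k17 had 6, 22 and 10 counts and cyp2x10.2 had 8, 17 and 17. DESeq2 called both higher, so they are among its 25. Some markers of other cell types rose at 5 dpf too. Of 22 tested hepatocyte markers 9 rose and 2 fell, and all 11 exocrine pancreas markers rose. Of the kidney tubule markers 1 of 11 rose, of the erythrocyte markers 1 of 5 and of the neuron markers 1 of 5. The part of other cell types in the counts of members was not tested.

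By family the counts were as follows. Family 1 had 0 of 5 tested members called by edgeR, with a median log2 fold change of -1.05, and likewise 0 at an unadjusted p below 0.05 and 0 by DESeq2. Family 2 had 16 of 36 tested members called higher, with a median of 1.75. Family 3 had 3 of 5 called higher, with a median of 3.32, and family 4 had 3 of 4 called higher, with a median of 2.01. These counts are with all libraries, where 18.1% of all genes tested were called higher and 14.1% lower (32.1% in either direction). Without 5 dpf replicate 1, 1 member of family 1 and 1 of family 2 were called lower, against 21.0% of all genes tested. Without both that library and 3 dpf replicate 3, 3 of family 1 and 5 of family 2 were, against 24.4%. Families 3 and 4 had 0 lower in both fits. No test was made of the differences between families.

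**Figure D1:**
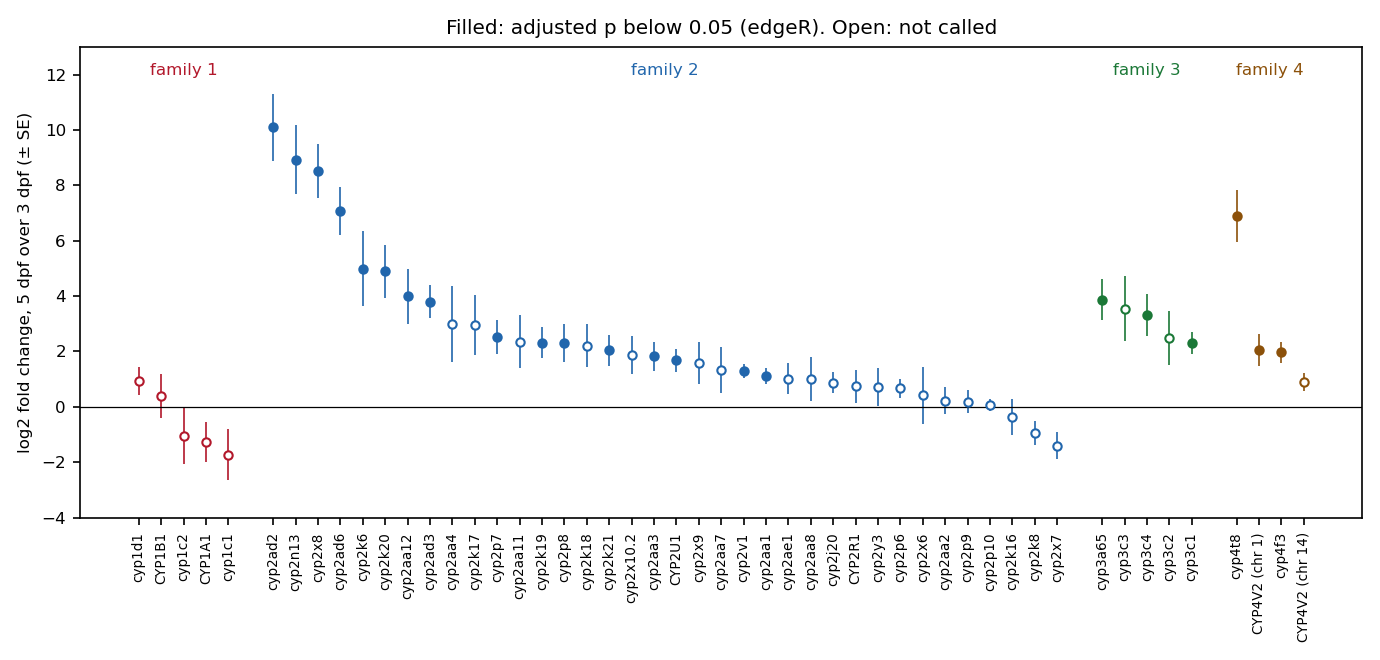
Log2 fold change of 5 dpf over 3 dpf, with its standard error, for the 50 tested P450 genes, ordered within each family. Filled points mark the 22 called genes, all of them above 0, and open points the 28 that were not called.

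The make-up of the P450 transcripts differed between the libraries of the ages. At 5 dpf cyp3a65 held the largest share of the summed FPKM of the 54 genes, and at 3 dpf CYP1A1 did. CYP1A1, the enzyme of family 1 that oxidizes polycyclic aromatic hydrocarbons, made up 16.4%, 32.2% and 8.52% at 5 dpf (19.0% ± 12.1, SD, n = 3), against 75.1%, 77.2% and 74.1% at 3 dpf (75.5% ± 1.62, SD, n = 3). cyp3a65, the zebrafish CYP3A gene of gut and liver, made up 45.5%, 40.9% and 51.6% at 5 dpf (46.0% ± 5.39, SD, n = 3), against 4.92%, 6.04% and 4.71% at 3 dpf (5.22% ± 0.712, SD, n = 3). The shares of the ages did not overlap for either gene. Each difference gave p = 0.10 in a two-sided exact permutation test, the smallest p that 3 against 3 libraries allow. The 2 genes were picked as the largest holders in these same libraries.

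These shares are taken within a library, so a scaling factor common to all genes of a library cancels out. Shares of 1 sum depend on each other, so a lower share need not mean a lower level. CYP1A1 held 16.4% at 2658 CPM in 5 dpf replicate 1 and 74.1% at 2069 CPM in 3 dpf replicate 3. Family 2 held 25.3%, 20.5% and 31.9% at 5 dpf and 17.1%, 14.6% and 18.3% at 3 dpf, without overlap. Family 4 held 1.99% to 2.67% at 5 dpf and 0.519% to 0.795% at 3 dpf. The 54 genes together made up 0.829%, 0.405% and 0.369% of all counts at 5 dpf and 0.402%, 0.653% and 0.297% at 3 dpf, and these ranges overlapped. The summed P450 level thus overlapped between the ages (13532, 3568 and 2918 CPM at 5 dpf, against 3942, 6530 and 2673 CPM at 3 dpf, exact permutation p = 0.80, two-sided), while the shares of CYP1A1 and cyp3a65 did not.

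**Figure D2:**
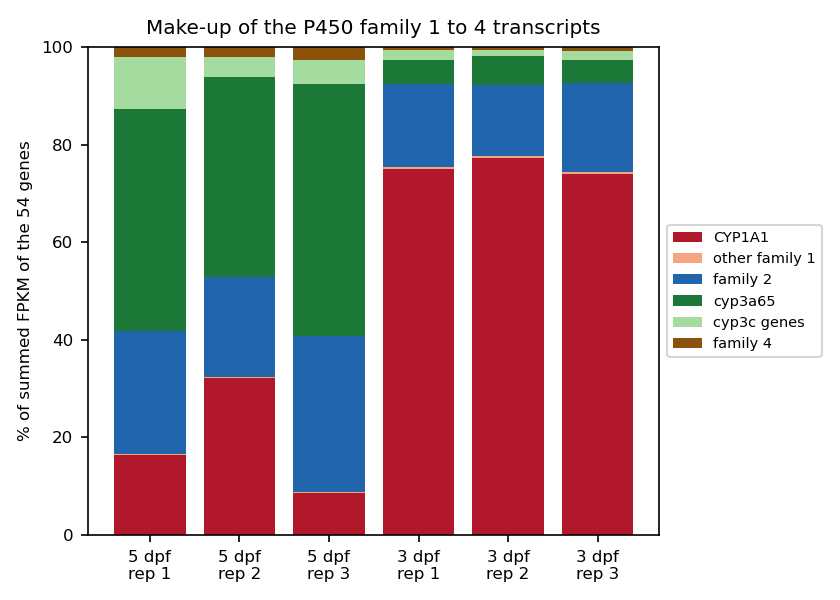
Share of the summed FPKM of the 54 P450 genes in each library, in percent, with the 3 libraries of 5 dpf on the left and the 3 of 3 dpf on the right. CYP1A1 fills 8.52% to 32.2% of the bars at 5 dpf and 74.1% to 77.2% at 3 dpf, and cyp3a65 fills 40.9% to 51.6% at 5 dpf and 4.71% to 6.04% at 3 dpf.

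By mean FPKM cyp3a65 ranked first at 5 dpf (1387 ± 1240 FPKM) and second at 3 dpf (94.7 ± 55.2 FPKM, SD, n = 3 each). CYP1A1 ranked second at 5 dpf (547 ± 452 FPKM) and first at 3 dpf (1325 ± 619 FPKM). The ranges of these 2 genes overlapped at 5 dpf, although cyp3a65 held the larger share in each 5 dpf library, and at 3 dpf they stood apart. At 5 dpf cyp3c3 (194 ± 282 FPKM), cyp2n13 (122 ± 129 FPKM) and cyp2y3 (118 ± 115.5 FPKM) followed, and these 3 did not differ beyond their spread. At 3 dpf cyp2y3 came next at 71.9 ± 30.6 FPKM and cyp2k16 after it at 48.2 ± 17.4 FPKM, which overlapped. cyp2n13 moved furthest among the leading genes: it ranked 4th at 5 dpf and 36th at 3 dpf. Mean FPKM was below 1 in 15 of the 54 genes at 5 dpf and in 24 at 3 dpf.

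**Figure D3:**
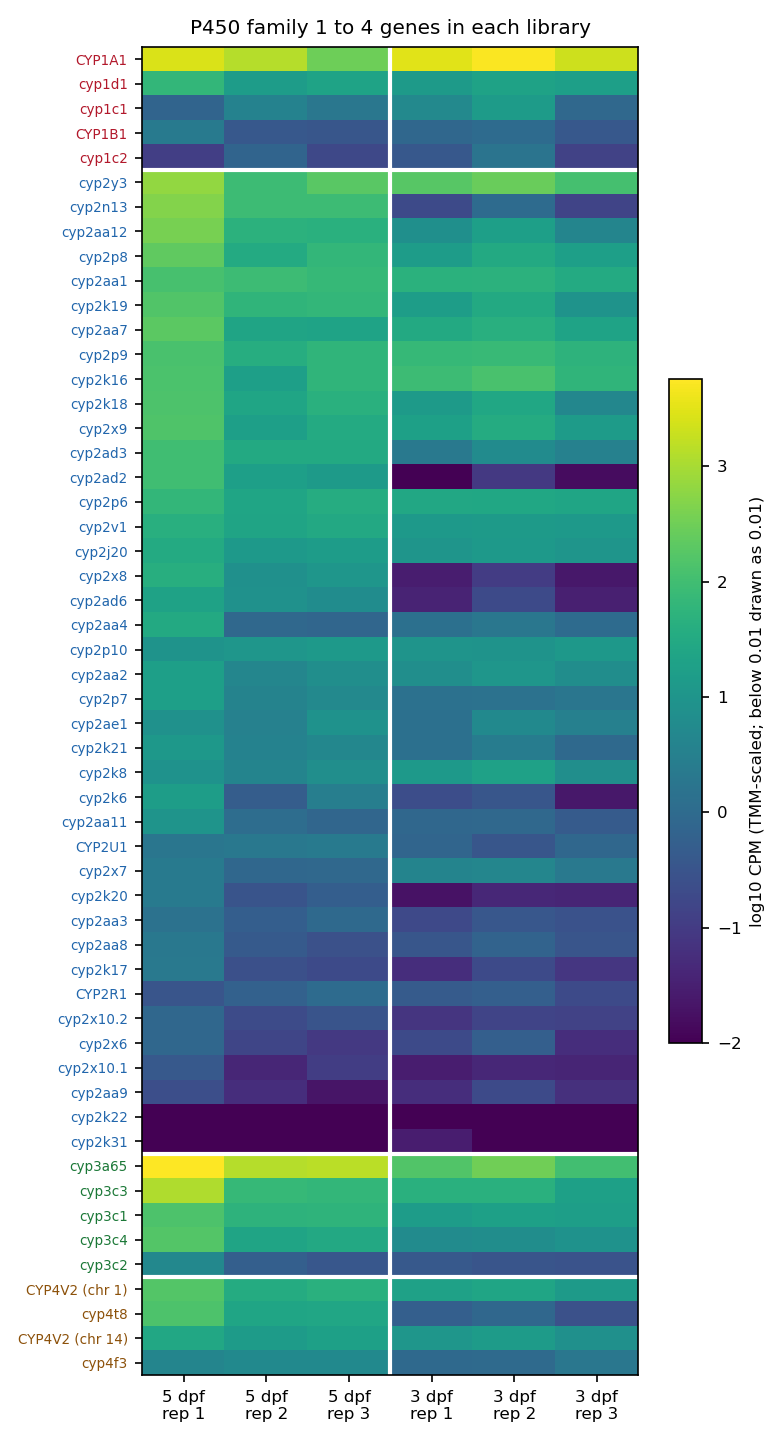
CPM of each of the 54 P450 genes (rows, grouped by family and ordered by mean level at 5 dpf) in each library (columns, 5 dpf on the left), on a log10 colour scale. cyp2ad2, cyp2x8, cyp2ad6 and cyp2n13 are light at 5 dpf and dark at 3 dpf, and within 5 dpf most rows are lightest in replicate 1.

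With all libraries family 1 gave no call in either direction, where 32.1% of all genes tested were called. CYP1A1 (ENSDARG00000098315, chromosome 18, 5588068 to 5598958) was at 2658, 1330 and 302 CPM at 5 dpf and at 3084, 5236 and 2069 CPM at 3 dpf. Its ages overlapped through 5 dpf replicate 1, which exceeded 3 dpf replicate 3. The log2 fold change was -1.28 (SE 0.72, edgeR adjusted p = 0.213). Without 5 dpf replicate 1 it was -2.08 and called lower (adjusted p = 0.0299).

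The other family 1 genes were far lower. cyp1d1 was at 64.2, 15.3 and 21.9 CPM at 5 dpf and at 13.6, 21.1 and 18.0 CPM at 3 dpf, and its ages overlapped (log2 fold change 0.94, SE 0.51, edgeR adjusted p = 0.194, and 0.091 without 5 dpf replicate 1). cyp1c1, a fish relative of CYP1B, was at 0.720, 3.55 and 1.96 CPM at 5 dpf and at 5.18, 14.6 and 0.898 CPM at 3 dpf (log2 fold change -1.72, SE 0.93, edgeR adjusted p = 0.195, and -0.56 without 3 dpf replicate 2). cyp1c2 (-1.05 on the log2 scale) and CYP1B1 (0.40) stayed at or below 2.28 CPM in every library. Both changed sign with 1 library left out, CYP1B1 to -1.03 without 5 dpf replicate 1 and cyp1c2 to 0.35 without 3 dpf replicate 2. All 5 family 1 genes were highest within 3 dpf in replicate 2.

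CYP1A1 is the classical target of the aryl hydrocarbon receptor, and the repressors tiparp and ahrra are targets of the same receptor. tiparp and ahrra lie outside the rule for named genes, were named after their values were seen, and are given for comparison. tiparp was at 303, 172 and 56.5 CPM at 5 dpf and at 316, 428 and 238 CPM at 3 dpf (log2 fold change -0.89, edgeR adjusted p = 0.251, and -1.52 with adjusted p = 0.0276 without 5 dpf replicate 1). ahrra was at 11, 6.68 and 2.09 CPM at 5 dpf and at 7.14, 12 and 9.01 CPM at 3 dpf. In all 3 genes 5 dpf replicate 3 was the lowest of all 6 libraries and 3 dpf replicate 2 the highest. Other family 1 genes had another order: CYP1B1 was highest in 5 dpf replicate 1 (2.28 CPM), and cyp1c1 and cyp1c2 were lowest there (0.720 and 0.118 CPM). The repressor ahrrb, given further below, was also lowest in 5 dpf replicate 1 and was highest in 3 dpf replicate 3. 3 dpf replicate 2 was also the highest 3 dpf library in 43 of the 50 tested members, against 36.6% of all genes tested. It was so in 20 of the 36 receptors and transcription factors listed further below. The source of the shared order was not tested. The receptor gene ahr2 was at 106, 147 and 140 CPM at 5 dpf and at 168, 175 and 142 CPM at 3 dpf and was not called.

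In family 3 all 5 genes had fold changes above 0 and 3 were called higher, against 18.1% of all genes tested. cyp3a65 (ENSDARG00000103295, chromosome 1, 59338175 to 59348118) was at 5693, 1304 and 1411 CPM at 5 dpf and at 156, 316 and 102 CPM at 3 dpf. Every 5 dpf library exceeded every 3 dpf library. It rose with a log2 fold change of 3.87 (SE 0.75, edgeR adjusted p = 0.00870). With 5 dpf replicate 1 left out it was 2.84, and the call held with each library left out in turn.

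The cyp3c genes form a fish subfamily and lie together on chromosome 3, from 40936094 to 40976582. cyp3c4 was at 160, 23.2 and 29.6 CPM at 5 dpf and at 6.08, 6.78 and 8.48 CPM at 3 dpf, and rose (log2 fold change 3.32, SE 0.75, edgeR adjusted p = 0.0145). cyp3c1 was at 139, 52.9 and 56.3 CPM at 5 dpf and at 15.4, 18.3 and 16.6 CPM at 3 dpf, and rose (2.30, SE 0.39, edgeR adjusted p = 0.00603). In both genes the ages were apart. The call of cyp3c4 was lost without any one of the 3 dpf libraries (adjusted p at most 0.0666), and that of cyp3c1 was kept. With 5 dpf replicate 1 left out the log2 fold change was 1.90 for cyp3c4 and 1.71 for cyp3c1.

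The 2 other cyp3c genes were not called. cyp3c3 was at 1156, 72.5 and 64.7 CPM at 5 dpf and at 45.7, 46.0 and 18.6 CPM at 3 dpf. The ages did not overlap, but 1 library held most of the 5 dpf sum. The log2 fold change was 3.55 (SE 1.16, edgeR adjusted p = 0.0516), and 0.91 without 5 dpf replicate 1. cyp3c2 stayed below 5 CPM (4.96, 0.548 and 0.373 CPM at 5 dpf, against 0.410, 0.327 and 0.302 CPM at 3 dpf), with a log2 fold change of 2.49 and edgeR adjusted p = 0.0886, and 0.41 without 5 dpf replicate 1.

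The largest changes of all members were in family 2. cyp2ad2 was at 96.4, 17.7 and 13.7 CPM at 5 dpf and at 0.00954, 0.0884 and 0.0159 CPM at 3 dpf, which rest on 11823 counts at 5 dpf and 13 counts at 3 dpf. It rose with a log2 fold change of 10.09 (SE 1.22, edgeR adjusted p = 0.00235). cyp2n13 was at 496, 86.5 and 86.3 CPM at 5 dpf and at 0.20, 1.02 and 0.151 CPM at 3 dpf, and rose (8.93, SE 1.24, edgeR adjusted p = 0.00339). In these genes the lowest 5 dpf library was far above the highest 3 dpf library.

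cyp2x8 was at 41.3, 7.89 and 10.3 CPM at 5 dpf and at 0.0286, 0.106 and 0.0238 CPM at 3 dpf, where it had 18 counts in all, and rose (8.53, SE 0.98, edgeR adjusted p = 0.00213). cyp2ad6 was at 21.2, 8.10 and 6.39 CPM at 5 dpf and at 0.0382, 0.194 and 0.0318 CPM at 3 dpf, where it had 30 counts in all, and rose (7.06, SE 0.86, edgeR adjusted p = 0.00247). Within 5 dpf replicate 1 was highest in each of these 4 genes, and within 3 dpf replicate 2 was. Without 5 dpf replicate 1 their log2 fold changes were 8.66 for cyp2ad2, 7.58 for cyp2n13, 7.42 for cyp2x8 and 6.36 for cyp2ad6, and all 4 calls held with each library left out in turn. Leaving out 3 dpf replicate 2 gave larger values, 11.55 for cyp2ad2, 10.29 for cyp2n13, 9.49 for cyp2x8 and 8.35 for cyp2ad6. cyp2ad2, cyp2x8 and cyp2ad6 passed the filter on low counts through their 5 dpf libraries, so they could not have been called lower.

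4 further family 2 genes rose with a log2 fold change of 3.80 or more. cyp2k6, whose zebrafish enzyme is known to oxidize aflatoxin B1, was at 15.6, 0.506 and 2.94 CPM at 5 dpf and at 0.229, 0.345 and 0.0238 CPM at 3 dpf (log2 fold change 4.99, SE 1.36, edgeR adjusted p = 0.0282). Its 5 dpf libraries spread widely, and the lowest was close to the highest 3 dpf library. At 3 dpf it had 24, 39 and 3 counts, so it passed the filter on low counts only with its 5 dpf libraries. cyp2k20 was at 2.38, 0.309 and 0.514 CPM at 5 dpf and at 0.0191, 0.0442 and 0.0397 CPM at 3 dpf (4.89, SE 0.97, edgeR adjusted p = 0.00932). It had 12 counts in all at 3 dpf and passed the filter on low counts through its 5 dpf libraries. cyp2aa12 was at 378, 49.1 and 45.7 CPM at 5 dpf and at 7.35, 18.1 and 4.21 CPM at 3 dpf (4.00, SE 1.00, edgeR adjusted p = 0.0210). cyp2ad3 was at 97.6, 30.9 and 31.3 CPM at 5 dpf and at 2.15, 5.88 and 3.42 CPM at 3 dpf (3.80, SE 0.60, edgeR adjusted p = 0.00470). The ages were apart in all 4. When 5 dpf replicate 1 was left out, the values were 3.14 for cyp2k6, 3.54 for cyp2k20, 2.27 for cyp2aa12 and 3.03 for cyp2ad3, and without 3 dpf replicate 2 it was 5.65 for cyp2k6 and 4.75 for cyp2aa12. cyp2k6 was not called without any one of the 3 dpf libraries (adjusted p 0.0683 to 0.0964), nor cyp2aa12 without 3 dpf replicate 1 (0.0856) or 3 dpf replicate 3 (0.0725). For cyp2aa12 DESeq2 gave no adjusted p.

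The abundant family 2 gene cyp2y3 did not follow these. It was at 653, 86.1 and 187 CPM at 5 dpf and at 180, 272 and 112 CPM at 3 dpf, and its ages overlapped (log2 fold change 0.71, SE 0.70, edgeR adjusted p = 0.465). Leaving out 5 dpf replicate 1 gave -0.45.

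Family 2 genes also include members with known single roles. CYP2U1, a fatty acid hydroxylase in mammals, was at 1.85, 1.98 and 2.38 CPM at 5 dpf and at 0.763, 0.354 and 0.826 CPM at 3 dpf, and rose (log2 fold change 1.67, SE 0.41, edgeR adjusted p = 0.0200). It is 1 of the members in which 5 dpf replicate 1 was not the highest, and its call was lost without 5 dpf replicate 2 (adjusted p = 0.0538), 5 dpf replicate 3 (0.0632), 3 dpf replicate 1 (0.0678) or 3 dpf replicate 2 (0.0635). CYP2R1, a 25-hydroxylase of vitamin D in mammals, was at 0.327, 0.618 and 1.03 CPM at 5 dpf and at 0.448, 0.539 and 0.199 CPM at 3 dpf and was not called.

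Of the 54 genes, 38 lay in 6 groups of neighbours with at most 100 kb between 1 gene and the next, and 16 in none. The largest held 11 genes on chromosome 20, from 25515259 to 25615802 (GRCz11). 7 of these 11 rose and 4 were not called. The counts called higher in this and the other groups stand beside 18.1% over all genes tested. The 4 genes on the minus strand, cyp2n13, cyp2ad6, cyp2ad2 and cyp2ad3, all rose, with log2 fold changes of 3.80 to 10.09. Of the 7 genes on the plus strand 3 rose, with log2 fold changes over the 7 of 0.08 to 2.52. This split by strand was noticed after the values were seen and was not tested. The minus-strand genes are of subfamilies cyp2n and cyp2ad, and the plus-strand genes of cyp2v, cyp2p and cyp2j. Strand and subfamily thus cannot be told apart in this group.

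At 5 dpf the mean FPKM of the 4 minus-strand genes was 6.96 to 122 and that of the 7 plus-strand genes 4.07 to 56.9. At 3 dpf it was 0.0195 to 1.85 for the minus-strand genes and 0.705 to 28.3 for the plus-strand genes. The levels of the strands thus overlapped at both ages. On the plus strand cyp2p7 (log2 fold change 2.52, SE 0.60, edgeR adjusted p = 0.0175), cyp2p8 (2.31, SE 0.69, adjusted p = 0.0375) and cyp2v1 (1.29, SE 0.25, adjusted p = 0.00917) rose. cyp2v1 reached 42.7, 22.9 and 29.9 CPM at 5 dpf, against 13.1, 13.4 and 12.6 CPM at 3 dpf, a narrow range. cyp2j20, a member of the subfamily that in mammals epoxidizes arachidonic acid (log2 fold change 0.88, edgeR adjusted p = 0.120), cyp2p6 (0.67, adjusted p = 0.174), cyp2p9 (0.19, adjusted p = 0.762) and cyp2p10 (0.08, adjusted p = 0.806) were not called.

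2 pairs in this group share exon sequence. cyp2ad2 and cyp2v1 share 165 exon bases on opposite strands, which the strand setting of the counting separates. cyp2p7 and cyp2j20 share 176 exon bases on the same strand, and reads there were counted for neither gene. cyp2p7 and cyp2p8 were not called without 3 dpf replicate 1 (adjusted p = 0.0755 for cyp2p7 and 0.132 for cyp2p8), 3 dpf replicate 2 (0.0673 and 0.0669) or 3 dpf replicate 3 (0.0536 and 0.120), and cyp2v1 not without 3 dpf replicate 1 (0.0517). Leaving out 5 dpf replicate 1 gave log2 fold changes of 1.51 for cyp2p7 and 1.18 for cyp2p8.

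**Figure D4:**
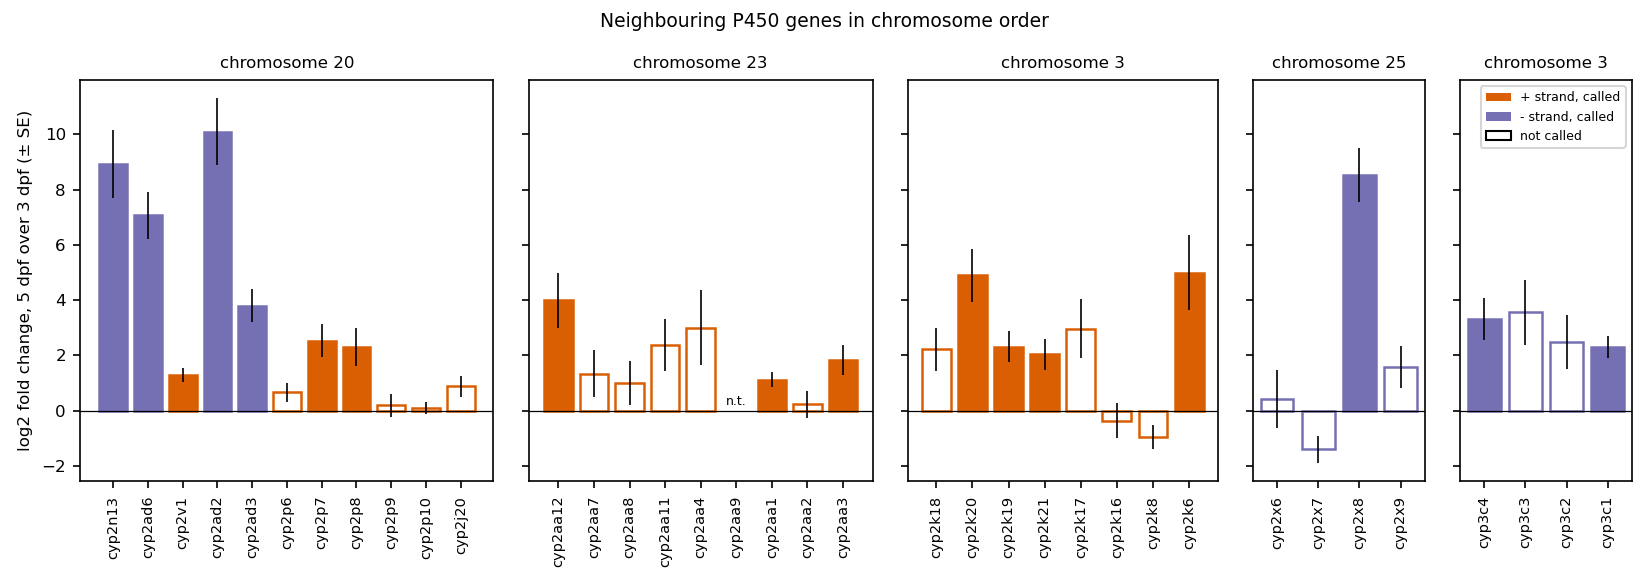
Log2 fold change of 5 dpf over 3 dpf, with its standard error, of P450 genes in chromosome order in the 5 groups of neighbours with tested members. Orange bars are genes on the plus strand and purple bars genes on the minus strand, filled where called, and n.t. marks a gene not tested. Called and uncalled genes stand side by side in every group.

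The group on chromosome 23, from 42292748 to 42493876, holds the 9 cyp2aa genes, all on the plus strand. 3 of its 8 tested genes rose. These were cyp2aa12, described above, cyp2aa1 and cyp2aa3. cyp2aa1 was at 123, 88.7 and 71.1 CPM at 5 dpf and at 46.8, 51.1 and 32.7 CPM at 3 dpf (log2 fold change 1.12, SE 0.27, edgeR adjusted p = 0.0195). cyp2aa3 was low, at 1.51, 0.513 and 0.943 CPM at 5 dpf and at 0.191, 0.362 and 0.278 CPM at 3 dpf (1.82, SE 0.53, edgeR adjusted p = 0.0359). cyp2aa1 was not called without any one 3 dpf library (adjusted p 0.0538 to 0.0760), and cyp2aa3 not without any one 3 dpf library (0.0800 to 0.138) or without 5 dpf replicate 3 (0.0798).

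In the uncalled genes of this group the fold changes moved with 1 library. cyp2aa4 was at 32.0, 0.871 and 0.788 CPM at 5 dpf and at 1.31, 1.87 and 1.02 CPM at 3 dpf. Its log2 fold change was 3.00 with all libraries (SE 1.37, edgeR adjusted p = 0.131) and -0.75 without 5 dpf replicate 1. cyp2aa11 had a log2 fold change of 2.36 (edgeR adjusted p = 0.0931), cyp2aa7 of 1.34 (0.257), cyp2aa8 of 1.01 (0.365) and cyp2aa2 of 0.22 (0.758). Without 5 dpf replicate 1, 4 of the 8 tested cyp2aa genes had log2 fold changes below 0. In all 8 that library was the highest of its age. cyp2aa7 and cyp2aa8 share 195 exon bases on the same strand.

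The group of 8 cyp2k genes on chromosome 3, from 12710350 to 12826387, had 4 called higher. Besides cyp2k6 and cyp2k20 these were cyp2k19 (157, 58.8 and 65.4 CPM at 5 dpf, against 16.1, 31.6 and 8.91 CPM at 3 dpf, log2 fold change 2.31, SE 0.56, edgeR adjusted p = 0.0184) and cyp2k21 (11.6, 3.63 and 4.62 CPM at 5 dpf, against 1.35, 2.55 and 0.906 CPM at 3 dpf, 2.04, SE 0.56, edgeR adjusted p = 0.0294). Both were lost without 3 dpf replicate 1 (adjusted p = 0.0796 for cyp2k19 and 0.110 for cyp2k21) or 3 dpf replicate 3 (0.0523 and 0.0911). cyp2k17 (log2 fold change 2.96, edgeR adjusted p = 0.0694) and cyp2k18 (2.21, 0.0650) were not called. With 5 dpf replicate 1 left out the log2 fold change was 1.38 for cyp2k21, 1.03 for cyp2k17 and 1.23 for cyp2k18. The 2 members that lie between cyp2k17 and cyp2k6 had values below 0. cyp2k16 was at 133, 17.6 and 58.7 CPM at 5 dpf and at 86.8, 124 and 59.5 CPM at 3 dpf (log2 fold change -0.37, edgeR adjusted p = 0.687), and cyp2k8 at 8.62, 4.01 and 7.12 CPM at 5 dpf and at 12.1, 19.3 and 6.89 CPM at 3 dpf (-0.96, adjusted p = 0.126). Neighbours of the same strand thus held both the called genes and genes whose ages overlapped.

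In the group of 4 cyp2x genes on chromosome 25, from 17358287 to 17403598, cyp2x8 rose and its neighbours did not. cyp2x7 was at 2.20, 0.843 and 0.873 CPM at 5 dpf and at 3.86, 4.36 and 2.11 CPM at 3 dpf. The log2 fold change was -1.41 (SE 0.49, edgeR adjusted p = 0.0620), with the overlap coming from 5 dpf replicate 1. Without that library it was -2.0 and called lower (adjusted p = 0.00402). cyp2x9 (log2 fold change 1.57, edgeR adjusted p = 0.151) and cyp2x6 (0.41, 0.791) were not called.

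The sixth group, cyp2k22 and cyp2k31 on chromosome 3, was not tested. cyp2k22 had 0 counts in all 6 libraries and cyp2k31 had 0 counts at 5 dpf and 4 counts at 3 dpf. The other untested members were cyp2aa9, with 29 counts at 5 dpf and 36 at 3 dpf, and cyp2x10.1, with 53 counts at 5 dpf and 13 at 3 dpf. Paralogs in such arrays can share sequence, and reads that map to several genes were not counted, so the levels of near-identical copies are uncertain.

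In family 4 all 4 genes had CPM without overlap, higher at 5 dpf, against 26.1% of all genes tested. Of the 4, 3 were called higher, against 18.1% of all genes tested. cyp4t8, from a subfamily of fish and amphibians, was at 144, 24.5 and 25.6 CPM at 5 dpf and at 0.544, 0.822 and 0.270 CPM at 3 dpf. It rose with a log2 fold change of 6.89 (SE 0.94, edgeR adjusted p = 0.00325), and 5.53 without 5 dpf replicate 1. cyp4f3, whose human namesake hydroxylates leukotriene B4, was at 4.06, 5.38 and 5.40 CPM at 5 dpf and at 0.916, 0.955 and 1.91 CPM at 3 dpf (log2 fold change 1.97, SE 0.38, edgeR adjusted p = 0.00834). Here 5 dpf replicate 1 was the lowest of its age.

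2 genes carry the name CYP4V2, a fatty acid hydroxylase whose human gene is mutated in a crystalline dystrophy of the retina. The CYP4V2 gene on chromosome 1 (ENSDARG00000062132) was at 161, 35.2 and 44.2 CPM at 5 dpf and at 19.9, 24.6 and 13.4 CPM at 3 dpf, and rose (log2 fold change 2.05, SE 0.59, edgeR adjusted p = 0.0336). Its call was lost without any one of the 3 dpf libraries (adjusted p 0.0765 to 0.113), and leaving out 5 dpf replicate 1 gave a log2 fold change of 1.05. The CYP4V2 gene on chromosome 14 (ENSDARG00000061585) was at 27.7, 14.8 and 18.9 CPM at 5 dpf and at 10.7, 14.7 and 7.85 CPM at 3 dpf, with a log2 fold change of 0.89 (edgeR adjusted p = 0.0683). It shares 551 exon bases on the same strand with FAM149A.

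The spread within an age was wider over the members than over all genes. The median ratio of the highest to the lowest library was 4.87 over the tested members within 5 dpf, against 1.88 over all genes tested, and 2.33 within 3 dpf, against 1.45. 5 dpf replicate 1 was the highest 5 dpf library in 43 of the 50 tested members and in 41.5% of all genes tested. Its log2 ratio to the mean of the other 5 dpf libraries had a median of 1.79 over the tested members and -0.03 over all genes tested. With scaling by library size alone these medians were 0.80 and -1.0. Within 3 dpf replicate 2 was highest in 43 of the 50, against 36.6% of all genes tested.

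In what follows counts are of members, and percentages are over all genes tested in the same fit. Without 5 dpf replicate 1 the same 22 members were called higher, against 24.8% of all genes tested, and 2 were called lower, CYP1A1 and cyp2x7, against 21.0% (45.8% called in either direction). The median log2 fold change of the members was then 0.96, and 14 members lay below 0. Leaving out a 3 dpf library took the calls to 10 higher without replicate 1, against 7.63% of all genes tested, 14 without replicate 2, against 9.12%, and 12 without replicate 3, against 12.4%, with 0 lower in the last, against 10.4%. The calls over all genes thus dropped along with those of the members. 10 members were called higher with each of the 6 libraries left out in turn: cyp2ad2, cyp2ad3, cyp2ad6, cyp2k20, cyp2n13, cyp2x8, cyp3a65, cyp3c1, cyp4f3 and cyp4t8. Among them cyp2ad2, cyp2x8, cyp2ad6 and cyp2k20 had only 13, 18, 30 and 12 counts in all at 3 dpf. These genes passed the filter on low counts through their 5 dpf libraries, so they could not have been called lower. Without both 5 dpf replicate 1 and the 3 dpf library tagged 4 dpf, 21 members were called higher, against 27.4%, and 8 lower, against 24.4% (51.8% in either direction). The 8 were CYP1A1, CYP1B1, cyp1c1, cyp2aa4, cyp2aa7, cyp2k8, cyp2k16 and cyp2x7.

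**Figure D5:**
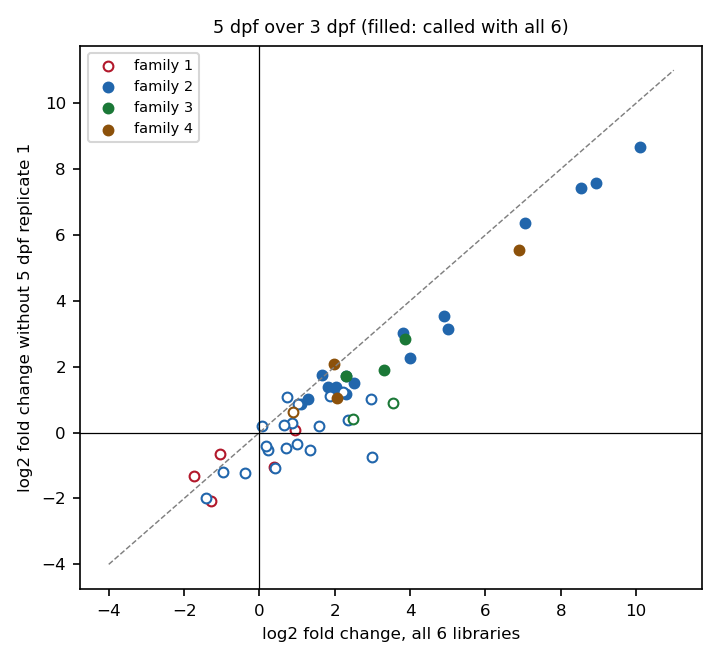
Log2 fold change of 5 dpf over 3 dpf for the tested P450 genes with all 6 libraries (horizontal) and without 5 dpf replicate 1 (vertical), where the dashed line marks equality. The 22 filled, called genes stay above 0 on both axes, and most points lie below the line.

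Other genes of the P450 system were counted on lists, beside 18.1% called higher and 14.1% lower over all genes tested, or 24.8% and 21.0% without 5 dpf replicate 1, 12.4% and 10.4% without 3 dpf replicate 3, and 27.4% and 24.4% without both. Of 12 tested electron donors of P450, 1 rose and 0 fell (edgeR), with 1 lower at an unadjusted p below 0.05 and 1 lower by DESeq2. That share was below the one over all genes. The counts were 0 higher and 1 lower without 3 dpf replicate 3, and 1 higher and 2 lower without both libraries. The gene that rose was CYB5A, cytochrome b5, at 278, 155 and 158 CPM at 5 dpf and at 89.0, 119 and 94.7 CPM at 3 dpf (log2 fold change 0.96, SE 0.29, edgeR adjusted p = 0.0376), with the call lost without any one of the 3 dpf libraries (0.0819 to 0.155). P450 reductase, named here outside the rule, has 2 genes called POR. The more abundant (ENSDARG00000059035) was at 850, 227 and 254 CPM at 5 dpf and at 187, 237 and 99.9 CPM at 3 dpf and was not called (log2 fold change 1.35, adjusted p = 0.109).

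Of 15 genes of haem synthesis and breakdown 2 rose and 3 fell, shares near those over all genes. ALAS1, the first and rate-limiting enzyme of haem synthesis, was at 1550, 579 and 514 CPM at 5 dpf and at 128, 142 and 99.3 CPM at 3 dpf. It rose with a log2 fold change of 2.84 (SE 0.47, edgeR adjusted p = 0.00549), without overlap. PPOX, a later step, also rose (0.93, SE 0.24, adjusted p = 0.0245). ALAD, the step after ALAS1, fell (-0.96, SE 0.22, adjusted p = 0.0146). PPOX was not called without 5 dpf replicate 3 (0.0744), 3 dpf replicate 1 (0.113) or 3 dpf replicate 3 (0.0826), nor ALAD without 3 dpf replicate 1 (0.0560) or 3 dpf replicate 2 (0.0636). The first step of the pathway and the next thus moved in opposite directions.

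Of 36 receptors and transcription factors that regulate P450 genes 4 rose and 6 fell. The counts were 4 higher and 10 lower without 5 dpf replicate 1, and 5 higher and 14 lower without both libraries. NR1I2, the pregnane X receptor, was at 29.0, 28.6 and 27.5 CPM at 5 dpf and at 9.71, 10.5 and 9.29 CPM at 3 dpf, a narrow range at each age. It rose with a log2 fold change of 1.53 (SE 0.17, edgeR adjusted p = 0.00197). pparaa, a fatty acid receptor, rose too (1.33, SE 0.20, adjusted p = 0.00389). The 6 that fell had log2 fold changes of -1.39 to -0.95. Among them ahrrb, a repressor of the aryl hydrocarbon receptor named here outside the rule, was at 0.275, 0.435 and 0.472 CPM at 5 dpf and at 0.992, 0.928 and 1.21 CPM at 3 dpf (-1.39, SE 0.40, adjusted p = 0.0333), and its call held in only 1 of the 6 fits with 1 library left out, that without 5 dpf replicate 1.

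Of 4 epoxide hydrolases, which open the epoxides that P450 enzymes form, 1 rose and 0 fell (edgeR), with 0 lower at an unadjusted p below 0.05 and 0 lower by DESeq2. The counts were 1 higher and 1 lower without 5 dpf replicate 1. They were 0 higher and 0 lower without 3 dpf replicate 3, and 0 higher and 1 lower without both libraries. The lowest log2 fold change on the list was -1.71, uncalled with all libraries. The gene that rose was EPHX1, the microsomal enzyme, at 58.6, 13.2 and 20.9 CPM at 5 dpf and at 6.03, 12.9 and 7.14 CPM at 3 dpf (log2 fold change 1.83, SE 0.57, edgeR adjusted p = 0.0442). Its call was lost without 5 dpf replicate 3 or any one of the 3 dpf libraries (adjusted p 0.0596 to 0.150).

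P450 genes of families above 4, which serve mainly sterols, bile acids, retinoids and vitamin D, were counted beside the members. Of 28 tested, 7 rose and 0 fell (edgeR), with a median log2 fold change of 0.71. None was lower at an unadjusted p below 0.05 (0) or by DESeq2 (0), but without 5 dpf replicate 1 the counts were 6 higher and 3 lower and the median 0.25. The shares called higher lie near those over all genes. CYP7A1, the rate-limiting enzyme of bile acid synthesis in liver, was at 57.3, 19.1 and 43.7 CPM at 5 dpf and at 1.46, 7.98 and 2.62 CPM at 3 dpf (3.31, SE 0.70, edgeR adjusted p = 0.0114). cyp27a1.1, a sterol 27-hydroxylase, was at 11.7, 6.68 and 10.2 CPM at 5 dpf and at 0.515, 0.654 and 0.651 CPM at 3 dpf (3.97, SE 0.32, edgeR adjusted p = 0.000983). The ages were apart in both.

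Markers of other cell types differed between the ages. The counts below stand beside 18.1% called higher and 14.1% lower over all genes tested, or 12.4% and 10.4% without 3 dpf replicate 3. Of 22 tested hepatocyte markers 9 rose and 2 fell, and the list summed to 202 to 272 CPM at 5 dpf and 118 to 200 CPM at 3 dpf, with 1 gene at 0 counts in 5 dpf replicate 1, 0 at 0 in the other 5 dpf libraries and 1 or 2 at 0 in each 3 dpf library. The defining hepatocyte marker fabp10a, named here outside the rule, was at 9.49, 9.83 and 8.06 CPM at 5 dpf and at 0.515, 0.159 and 0.882 CPM at 3 dpf. The list as a whole moved less, with a median log2 fold change of 0.79. Of its 22 tested markers 7 lay below 0, the lowest at -2.41. All 11 exocrine pancreas markers rose, with sums of 280 to 954 CPM at 5 dpf and 2.98 to 3.38 CPM at 3 dpf. Of 12 enterocyte markers 8 rose and 1 fell, and of 8 markers of lysosome-rich enterocytes 6 rose and 0 fell, also by DESeq2 and at an unadjusted p below 0.05. In 5 dpf replicate 1, where most members were highest, the hepatocyte list lay at a median of -0.28 on the log2 scale relative to 5 dpf replicates 2 and 3, the exocrine pancreas list of -0.89, the enterocyte list of 1.24 and the list of lysosome-rich enterocytes of 1.53. The kidney tubule list lay at 0.60 and the goblet cell list at 0.37. For the other lists the medians were -1.06 (endothelium), -1.24 (leukocyte), -1.01 (erythrocyte), -2.12 (mesenchyme and smooth muscle), -0.50 (neuron) and -0.63 (enteroendocrine). The cell source of the high member levels in that library was not tested.

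Of the remaining lists, kidney tubule had 1 of 11 tested markers called higher, endothelium 3 of 4, leukocyte 5 of 7, erythrocyte 1 of 5, mesenchyme and smooth muscle 7 of 8, neuron 1 of 5, enteroendocrine 4 of 6 and goblet cell 3 of 3, and none of these lists had a marker called lower by edgeR. At an unadjusted p below 0.05, and by DESeq2, 1 kidney tubule marker was lower. Without 3 dpf replicate 3, the library tagged 4 dpf, 0 endothelium markers and 0 erythrocyte markers were called, 7 hepatocyte markers were higher and 4 lower, and 6 enterocyte markers were higher and 0 lower. Without 5 dpf replicate 1, 13 hepatocyte markers were higher and 3 lower, and 9 enterocyte markers higher and 2 lower. Over all genes the shares were then 24.8% and 21.0%. Without both libraries the hepatocyte counts were 14 and 5 and the enterocyte counts 9 and 2, against 27.4% and 24.4%. In both fits 11 exocrine pancreas markers and 6 of lysosome-rich enterocytes were higher and 0 lower.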

How the data were processed

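The authors deposited raw counts per gene for each of 6 libraries, 3 at 5 dpf and 3 at 3 dpf. They were made with featureCounts 1.6.3, per the file headers, from read pairs over exons of the Ensembl release 115 annotation of GRCz11 with strand setting 2, and reads of several places or several genes were not counted. Trimmomatic 0.38, STAR 2.7.11 and Subread 1.6.3 are named in the submitters' processing notes. Library totals ran from 102653637 to 125456069 counts. Each library is a pool, so p-values measure the spread between these pools.

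Counts were tested with edgeR 4.0.16 in R 4.3.3 (quasi-likelihood F-test, two-sided, TMM scaling, age as the only term). Genes were kept by filterByExpr (count 10, total 15). P-values were adjusted by Benjamini-Hochberg over the 22386 kept genes, and calls were made below 0.05. SE is the log2 fold change divided by the square root of F. FPKM is TMM-scaled CPM per kilobase of the exon length in the files. Neighbours were joined at gaps of at most 100 kb. Alternatives covered scaling (RLE, upper quartile, library size), other filters, DESeq2 1.42.0, a replicate block, mitochondrial genes left out and each library left out.

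Members and lists were chosen with earlier results of these data known. Of the list entries 121 matched a gene name with case ignored, 37 after a copy suffix was dropped and 15 none. Named genes were the called members of largest change (8 in family 2, up to 4 in each other family, at 1 CPM or more), the 3 of highest FPKM per family and age, members of neighbour groups with called and uncalled genes, and from each pathway list the 2 called genes of largest change in each direction at 5 CPM or more. CYP2U1, CYP2R1, tiparp, ahrra, ahrrb, ahr2, POR and the small family 1 genes were named after their values were seen. The marker fabp10a was also named outside the rule. The script was tested on simulated data. Promoter and protein sequences were not used here, and some genes that the rule names are not reported here.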

Additional observations from a re-analysis of the deposited data

How the results depend on the processing

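The count of members called higher at 5 dpf, 22, was 20 to 25 under the 3 other scalings, without a filter, with a minimum of 1 CPM, and under DESeq2 and the fit without mitochondrial genes, and 10 to 24 with 1 library left out. The count called lower, 0, was 1 under library size scaling, no filter and DESeq2, and 0 to 2 with 1 library left out. Without both 5 dpf replicate 1 and 3 dpf replicate 3, an alternative chosen after seeing the data, it was 8, and the members' median log2 fold change was 0.75, against 1.85 with all libraries and 0.96 to 2.04 with 1 left out. Over all genes, 4045 called higher became 2512 under library size scaling, 6294 without both libraries and 1777 to 5748 with 1 left out, and 3149 called lower became 1337, 5608 and 1226 to 4880. Gaps of 50 or 250 kb gave counts of neighbour groups within 1.5 times. Uncalled genes changed sign, and the cause was not tested. Under library size scaling log2 fold changes turned to -0.059 for cyp2p9, -0.0032 for cyp2x6, -0.063 for cyp2aa2 and -0.032 for CYP1B1. Without both libraries they were -0.59 for cyp2p9, -0.075 for cyp2x9, -1.58 for cyp2x6, -0.95 for cyp2aa4 (adjusted p = 0.0471, edgeR), -0.74 for cyp2y3, -0.74 for cyp2aa7 (adjusted p = 0.0107, edgeR), -0.56 for cyp2aa8, -0.68 for cyp2aa2 and -1.37 for CYP1B1. With 1 library left out they ran from -0.42 to 0.46 for cyp2p9, -0.053 to 0.19 for cyp2p10 (0.30 without both libraries), -1.06 to 1.46 for cyp2x6, -0.75 to 3.55 for cyp2aa4, -0.45 to 1.11 for cyp2y3, -1.23 to 0.051 for cyp2k16 (-1.48 without both libraries), 0.19 to 1.99 for cyp2x9, -0.52 to 1.78 for cyp2aa7, -0.36 to 1.45 for cyp2aa8, -0.54 to 0.53 for cyp2aa2, -1.03 to 0.81 for CYP1B1 and -2.25 to 0.35 for cyp1c2. With upper quartile scaling all genes had a median log2 fold change of 0.22, against 0.09 under TMM, and the members one of 1.96, against 1.85. No member called with all libraries changed sign under any of these alternatives.

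Equal replicate numbers showed no clear pairing of the libraries: deviations from the mean of the age correlated at 0.092, -0.217 and 0.193. With 3 libraries per age these values cannot exclude a pairing. With the replicate number as a block 20 members were called higher and 1 lower, and the log2 fold change of CYP1B1 was -0.047. The 4 members with the fewest counts were not tested.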
